A study of Bos taurus with 28 samples.

Results

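LTA4H (ENSBTAG00000016415) encodes leukotriene A4 hydrolase and was 1 of the 24596 bovine gene IDs counted in uterine biopsies. It was chosen by its measured values, because its level in inseminated heifers differed from that in CTRL heifers. Its differences from CTRL are therefore given as a description with no test, and the tests are kept for HF against LF and for the study replicates.

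One uterine biopsy from each of 28 heifers was sequenced. The 10 HF heifers were inseminated with frozen-thawed semen of high-fertility bulls, the 10 LF heifers with frozen-thawed semen of low-fertility bulls, and the 8 CTRL heifers were not inseminated. Every heifer, CTRL included, went through the same estrus synchronization with progesterone, gonadotrophin-releasing hormone and prostaglandin F2 alpha. Tissue was taken after slaughter, 12 h after insemination in HF and LF heifers, from between the caruncles in the horn on the side of ovulation, and the endometrium was cut away from the myometrium. The comparison asks how the uterus differs after semen of bulls of unequal field fertility. Each of the 5 HF and 5 LF bulls served 2 heifers, 1 in each of 2 study replicates, so a bull is represented by 2 animals at most. CTRL heifers received no semen and no insemination procedure, so semen, extender and the act of insemination cannot be told apart here. The sample labels give the breed as Holstein-Friesian, whereas the animal list of the study gives cross-bred heifers, and breed below follows that animal list.

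Leukotriene A4 hydrolase is a cytosolic zinc enzyme. It converts leukotriene A4, which 5-lipoxygenase makes from arachidonic acid, into leukotriene B4, a lipid that attracts and activates neutrophils. In human and mouse the same protein is also an aminopeptidase that removes the proline of the tripeptide Pro-Gly-Pro, another neutrophil attractant. Neutrophils enter the uterine lumen after insemination in cattle and clear sperm and bacteria. The gene is transcribed in many cell types, epithelial cells among them, so its RNA in a biopsy need not come from neutrophils.

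Total counts per heifer were 14872812 to 24024538 in HF, 16039311 to 25633259 in LF and 15458403 to 22834975 in CTRL heifers. LTA4H itself took 1045 to 1967 counts in HF, 1169 to 2140 in LF and 782 to 1466 in CTRL heifers. At these counts, counting error alone amounts to a coefficient of variation of 2.16% to 3.58%, well below the spread between heifers of one treatment. LTA4H was among the 15163 genes that passed the filter on low counts over all 28 heifers. Levels are given below as normalised CPM, that is, CPM (reads of a gene relative to the library size) after scaling by the trimmed mean of M values (TMM).

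LTA4H was higher in inseminated than in CTRL uteri, after semen of HF bulls and after semen of LF bulls. In HF heifers 1 to 10 its level was 74.0, 58.0, 83.3, 96.2, 78.4, 70.3, 92.0, 63.7, 67.7 and 69.5 CPM. In LF heifers 1 to 10 it was 80.0, 98.5, 75.1, 88.0, 79.1, 68.4, 79.0, 77.5, 69.2 and 79.7 CPM. In CTRL heifers 1 to 8 it was 47.6, 66.7, 61.4, 46.9, 55.2, 55.4, 67.9 and 57.6 CPM. All 10 LF heifers lay above the highest CTRL heifer, and 7 of 10 HF heifers did. The margin for LF was narrow, with 68.4 CPM in the lowest LF heifer and 67.9 CPM in the highest CTRL heifer, and with CPM of total counts, without TMM, 7 of 10 LF and 6 of 10 HF heifers lay above every CTRL heifer. All 10 HF and all 10 LF heifers were above the CTRL median of 56.5 CPM.

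**Figure D1:**
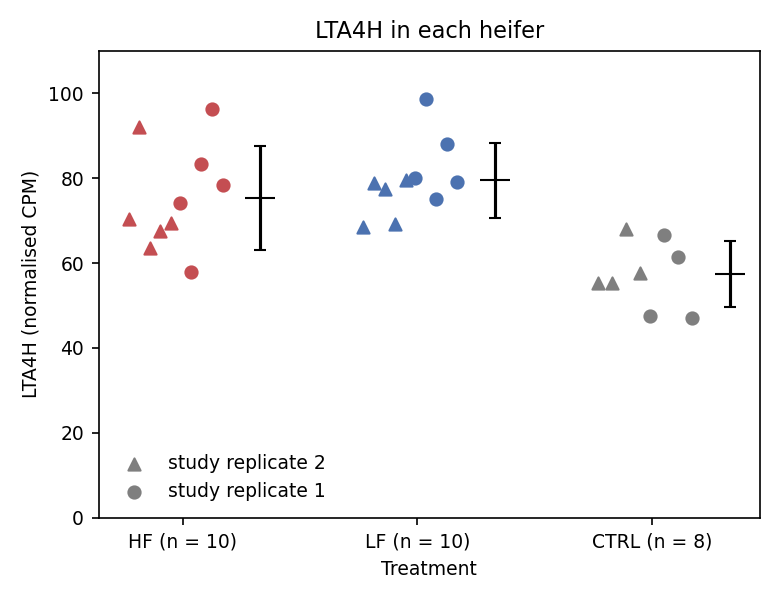
LTA4H level in each of 28 heifers, in normalised CPM on the vertical axis, by treatment from left to right HF, LF and CTRL, with triangles for study replicate 2 and circles for study replicate 1. The bar beside each treatment is the mean ± SD. The LF points, 68.4 to 98.5 CPM, all lie above the CTRL points, 46.9 to 67.9 CPM, and 3 of 10 HF points fall within the CTRL range.

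The mean level was 75.3 ± 12.2 CPM in HF (SD, n = 10) and 79.4 ± 8.73 CPM in LF (SD, n = 10), against 57.3 ± 7.80 CPM in CTRL (SD, n = 8). Over both inseminated treatments it was 77.4 ± 10.5 CPM (SD, n = 20). The coefficient of variation between heifers was 16.2% in HF, 11.0% in LF and 13.6% in CTRL. In order of level, LF and HF are therefore neighbours that overlap over most of their range, and CTRL lies below both. Because the samples are bulk tissue, a lower level may be fewer cells that express the gene or less RNA per cell, and these cannot be told apart.

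The edgeR log2 fold change of LTA4H was 0.39 (SE 0.11) for HF against CTRL, or 1.31-fold, and 0.47 (SE 0.10) for LF against CTRL, or 1.39-fold. For both inseminated treatments together against CTRL it was 0.43 (SE 0.089), or 1.35-fold. These 3 values share the same 8 CTRL heifers and are not independent of each other. Across all genes tested, the median log2 fold change was -0.024 for HF against CTRL and 0.0099 for LF against CTRL, values that TMM scaling holds near 0. In the whole table, edgeR's quasi-likelihood test with Benjamini-Hochberg adjustment called 0 of 14885 genes (0%) for HF against CTRL and 0 of 14849 (0%) for LF against CTRL. At an unadjusted p under 0.05 it called 2386 genes (16.0%) for HF and 839 genes (5.65%) for LF against CTRL, and DESeq2 with adjustment called 328 of 15514 (2.11%) for HF and 2 of 19179 (0.0104%) for LF. Among the 15163 genes past the filter, LTA4H was the 1 gene (0.00660%) in which every LF heifer exceeded every CTRL heifer in TMM-normalised CPM. That count describes the contrast by which the gene was chosen, and nothing is read from it.

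LTA4H did not pass the test between HF and LF uteri. The lowest, median and highest levels were 58.0, 72.2 and 96.2 CPM in HF and 68.4, 79.0 and 98.5 CPM in LF heifers. Of the 10 HF heifers, 3 were above the LF median and 3 were below every LF heifer. The log2 fold change was -0.09 (SE 0.092), with a 95% interval of -0.28 to 0.10, which corresponds to 0.824-fold to 1.08-fold. The edgeR quasi-likelihood test gave p = 0.354, and 0.887 after Benjamini-Hochberg adjustment over 14793 genes, and DESeq2 gave an adjusted p of 0.895. The missed threshold does not show that the treatments act alike, as the interval shows.

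LTA4H was also set out by bull. The means over the 2 heifers of a bull were 72.2 to 81.9 CPM for the 5 HF bulls and 74.2 to 88.8 CPM for the 5 LF bulls. The widest pair belonged to HF bull 7, with 92.0 CPM in study replicate 2 and 58.0 CPM in study replicate 1. HF bull 9 gave 67.7 CPM in study replicate 2 and 96.2 CPM in study replicate 1. At the other end, LF bull 5 gave 79.7 and 79.1 CPM, and LF bull 3 gave 77.5 and 75.1 CPM, in study replicates 2 and 1. Heifers of the same bull were no closer to each other than heifers of different bulls. The median absolute difference on the log2 scale was 0.388 within bulls and 0.237 between bulls in HF, and 0.224 within bulls and 0.149 between bulls in LF (5 and 20 pairs per treatment, each pair spanning the study replicates). No test was made of these few pairs.

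**Figure D2:**
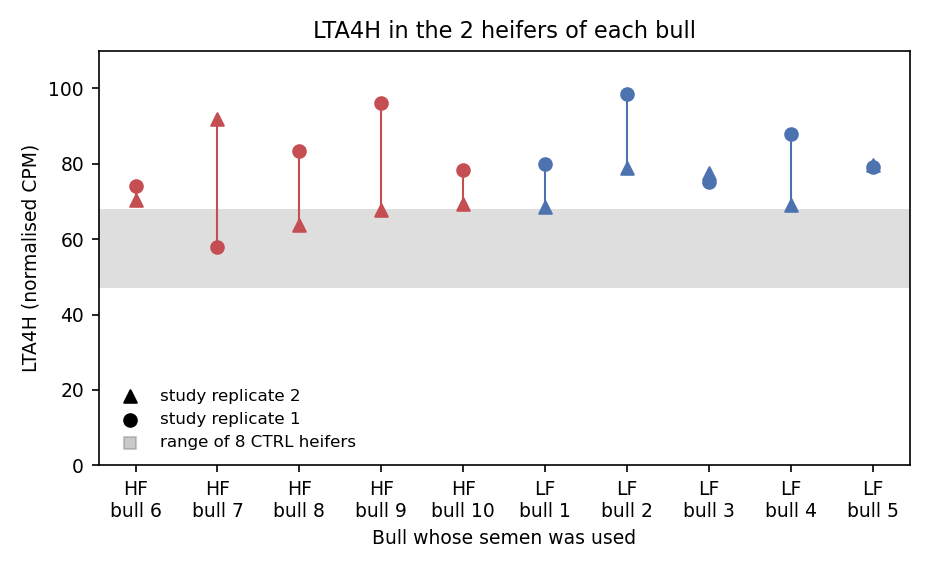
LTA4H level in normalised CPM for the 2 heifers of each bull, HF bulls on the left and LF bulls on the right, with a triangle for study replicate 2, a circle for study replicate 1 and a line joining the heifers of a bull. The grey band is the range of the 8 CTRL heifers, 46.9 to 67.9 CPM. The line is longest for HF bull 7, and 7 of the 10 bulls have the lower value in study replicate 2.

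The study replicates, which held different heifers, gave the same order of treatments. LTA4H was chosen by the heifers of both study replicates together, so this order is a description and not an independent repeat. In study replicate 2, LTA4H averaged 72.6 ± 11.1 CPM in HF and 74.8 ± 5.49 CPM in LF (SD, n = 5 each), against 59.0 ± 6.02 CPM in CTRL (SD, n = 4). In study replicate 1 it averaged 78.0 ± 13.9 CPM in HF and 84.1 ± 9.29 CPM in LF (SD, n = 5 each), against 55.7 ± 9.91 CPM in CTRL (SD, n = 4). Within study replicate 2 alone the log2 fold change was 0.30 (SE 0.14) for HF against CTRL and 0.36 (SE 0.15) for LF against CTRL. Within study replicate 1 alone it was 0.49 (SE 0.18) for HF and 0.60 (SE 0.16) for LF. The differences from CTRL were thus smaller in study replicate 2, in which the inseminated means were lower and the CTRL mean was higher.

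This gap between the study replicates did not pass a test. The edgeR log2 fold change of study replicate 2 against 1, with treatment in the fit, was -0.07 (SE 0.079, 95% interval -0.24 to 0.09, adjusted p = 0.999). The interaction, that is, the difference between study replicates 2 and 1 in the fold change from CTRL, was -0.19 for HF (SE 0.20, 95% interval -0.60 to 0.22, edgeR p = 0.358 before adjustment). For LF it was -0.25 (SE 0.20, 95% interval -0.67 to 0.16, edgeR p = 0.213 before adjustment), and the adjusted p of both interactions exceeded 0.99. These values rest on few heifers. Leaving out 1 heifer moved the study replicate value between -0.11 (without HF heifer 7) and -0.04 (without HF heifer 4), the HF interaction between -0.29 (without CTRL heifer 2) and -0.10 (without HF heifer 4), and the LF interaction between -0.36 (without CTRL heifer 2) and -0.18 (without CTRL heifer 7), with no fit past the threshold.

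Breeds were spread unevenly over the treatments. Limousin crosses were the one breed with at least 3 heifers in every treatment, and in them LTA4H averaged 74.5 ± 14.7 CPM in HF (SD, n = 4) and 82.5 ± 14.9 CPM in LF (SD, n = 3), against 56.1 ± 8.11 CPM in CTRL (SD, n = 4). The log2 fold change from CTRL in Limousin crosses alone was 0.40 (SE 0.17) for HF and 0.55 (SE 0.17) for LF. These heifers are among those by which LTA4H was chosen, so the values are a description. In Charolais crosses the level was 69.5 to 92.0 CPM in 4 HF heifers and 68.4 to 80.0 CPM in 5 LF heifers, against 67.9 CPM in 1 CTRL heifer, the highest CTRL value. With breed as a term the log2 fold change was 0.34 for HF against CTRL and 0.47 for LF against CTRL. That term held Limousin crosses, Charolais crosses and all other crosses pooled, so the breeds in the pool were not adjusted for singly.

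Around LTA4H in its pathway, only a few genes carried a name. The count files list Ensembl IDs without symbols, and names were available for 1522 IDs, most of which come from a list ordered by the strength of the LF against CTRL difference, so the named genes lean toward that contrast. The other names came from the study's printed tables of differential genes, so those genes lean toward the comparisons printed there. ALOX12 is printed for HF against CTRL and for HF against LF, and PTGDS for HF against CTRL. PTGES is printed in the study's gene ontology table for HF against CTRL. Of 20 other leukotriene genes listed, 2 were named and tested, PLA2G4A and MGST2. Of 22 further eicosanoid genes, 6 were, namely PTGES, PTGDS, PTGIS, ALOX12, EPHX1 and EPHX2. Of 12 other members of the M1 aminopeptidase family, 3 were, namely RNPEP, NPEPPS and TAF2, and of 5 genes of Pro-Gly-Pro formation 0 were. The remaining genes of these lists were not analysed here.

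By edgeR with adjustment, 0 of the 2 leukotriene genes, 0 of the 6 eicosanoid genes and 0 of the 3 aminopeptidase genes were called in any of HF against CTRL, LF against CTRL and HF against LF. Without CTRL heifer 2, edgeR called 91 of 14932 genes (0.609%) in HF against CTRL, PTGDS, PTGES and ALOX12 among them, and without CTRL heifer 6 it called 3 of 14950 (0.0201%), PTGDS and ALOX12 among them. In the other 16 fits of HF against CTRL with 1 heifer left out, it called 0 genes. At an unadjusted p under 0.05, which 16.0% of all genes met for HF against CTRL, 1 leukotriene gene had a positive value, and 3 eicosanoid genes had a positive and 1 a negative value. For LF against CTRL, where 5.65% of all genes met it, 1 leukotriene gene, 4 eicosanoid genes and 1 aminopeptidase gene had a positive and 1 eicosanoid gene a negative value. For HF against LF, where 7.92% met it, 1 leukotriene gene, 1 eicosanoid gene and 1 aminopeptidase gene had a negative and 1 eicosanoid gene a positive value. For HF against CTRL, DESeq2 called PTGDS, PTGES and EPHX1 higher and ALOX12 lower, where it called 328 of 15514 genes (2.11%) in all. It called none of the 11 named genes in LF against CTRL, where it called only 2 of 19179 genes (0.0104%), so nothing is read from that. For HF against LF, edgeR called 0 of 14793 genes (0%) after adjustment and 1171 (7.92%) at an unadjusted p under 0.05, and DESeq2 called 27 of 16664 (0.162%), PLA2G4A and ALOX12 among them. The median log2 fold changes in HF against CTRL, LF against CTRL and HF against LF were 0.09, 0.37 and -0.29 for the leukotriene genes, 0.50, 0.42 and 0.30 for the eicosanoid genes, and -0.04, -0.14 and 0.08 for the aminopeptidases, beside -0.024, 0.0099 and -0.033 for all genes tested. Most names came from a list ordered by the LF against CTRL difference. The shares and medians over all genes are therefore no fair background for the named genes, least of all in LF against CTRL, and no enrichment is read from them.

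PLA2G4A encodes the cytosolic phospholipase A2 that frees arachidonic acid from membranes, the step at the head of the pathway. Its lowest, median and highest levels were 20.5, 29.4 and 33.3 CPM in HF, 29.2, 38.8 and 64.5 CPM in LF and 21.2, 30.3 and 51.0 CPM in CTRL heifers. HF and LF overlapped between 29.2 and 33.3 CPM, while CTRL overlapped with both. Unlike LTA4H, PLA2G4A was thus not above CTRL in HF heifers, with a log2 fold change of -0.19 (SE 0.16) for HF against CTRL and 0.35 (SE 0.17) for LF against CTRL. For HF against LF the log2 fold change was -0.55 (SE 0.13, 95% interval -0.82 to -0.28), with an unadjusted p of 3.86e-04 and an adjusted p of 0.357 by edgeR and 0.0490 by DESeq2. The call thus depends on the tool, and the DESeq2 value lies close to the threshold. The highest LF value was 64.5 CPM in LF heifer 8. Without that heifer the log2 fold change was -0.45 (SE 0.11), with an adjusted p of 0.418 by edgeR and 0.0523 by DESeq2.

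MGST2 encodes a microsomal glutathione transferase that can make leukotriene C4 from leukotriene A4, the substrate it shares with LTA4H. Its mean level was 67.7 ± 13.8 CPM in HF and 69.0 ± 20.1 CPM in LF (SD, n = 10 each), against 52.6 ± 12.9 CPM in CTRL (SD, n = 8), and the treatments overlapped. The log2 fold change was 0.37 (SE 0.14) for HF against CTRL and 0.39 (SE 0.17) for LF against CTRL, close in size to the LTA4H values. The edgeR adjusted p values were 0.216 for HF and 0.874 for LF, so neither passed the test. HF against LF gave -0.03 (SE 0.14, adjusted p = 0.993 by edgeR).

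RNPEP, aminopeptidase B, is the close relative of LTA4H in the M1 family and lies on the same scale of abundance. It averaged 116 ± 21.1 CPM in HF and 155 ± 26.2 CPM in LF (SD, n = 10 each), against 112 ± 22.5 CPM in CTRL (SD, n = 8). Its lowest and highest values were 96.6 and 159 CPM in HF, 120 and 206 CPM in LF and 81.3 and 147 CPM in CTRL heifers. RNPEP was therefore nearly level between HF and CTRL, with a log2 fold change of 0.05 (SE 0.13), and 0.47 (SE 0.13) in LF against CTRL, with edgeR adjusted p values of 0.868 for HF and 0.874 for LF. For HF against LF it was -0.42 (SE 0.11, 95% interval -0.65 to -0.20), with an adjusted p of 0.441 by edgeR and 0.0891 by DESeq2. The other named family members had negative values against CTRL and did not pass the test. NPEPPS, the puromycin-sensitive aminopeptidase, had log2 fold changes of -0.04 for HF and -0.14 for LF against CTRL. TAF2, a subunit of the transcription factor TFIID with an aminopeptidase-like fold, had -0.24 for HF and -0.33 for LF against CTRL.

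Among the eicosanoid genes outside the leukotriene branch, PTGDS and PTGES had larger log2 fold changes from CTRL than LTA4H. PTGDS, which makes prostaglandin D2, had 318 ± 97.9 CPM in HF and 212 ± 87.9 CPM in LF (SD, n = 10 each), against 146 ± 38.1 CPM in CTRL (SD, n = 8). Its lowest and highest values were 221 and 556 CPM in HF, 109 and 427 CPM in LF and 89.0 and 188 CPM in CTRL heifers. How many of all genes separate HF from CTRL heifers in this way is not given here, and nothing is read from it. The log2 fold change of PTGDS was 1.13 (SE 0.18) for HF against CTRL, with an adjusted p of 0.0650 by edgeR and 2.71e-05 by DESeq2. The study prints PTGDS among its differential genes for that comparison, so these values are not an independent result. PTGES, a prostaglandin E2 synthase, averaged 13.0 ± 4.81 CPM in HF and 10.9 ± 6.64 CPM in LF (SD, n = 10 each), against 6.04 ± 2.46 CPM in CTRL (SD, n = 8), with log2 fold changes from CTRL of 1.10 (SE 0.25) for HF and 0.86 (SE 0.32) for LF. For HF against CTRL, PTGES had an adjusted p of 0.118 by edgeR and 0.00477 by DESeq2. The study lists PTGES among the differential genes of a gene ontology term for that comparison, so these values are not an independent result either.

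ALOX12, the 12-lipoxygenase, which also acts on arachidonic acid, had the opposite sign to LTA4H in HF and in LF heifers against CTRL. For LF against CTRL its log2 fold change was -0.64 (SE 0.59), with an adjusted p of 0.900 by edgeR and 0.993 by DESeq2. Its lowest, median and highest levels were 3.72, 6.24 and 15.9 CPM in HF, 3.63, 13.0 and 68.6 CPM in LF and 5.60, 31.3 and 92.9 CPM in CTRL heifers, so that HF heifers were uniformly low while LF and CTRL heifers spread widely. The log2 fold change was -2.52 (SE 0.43) for HF against CTRL, with an adjusted p of 0.0650 by edgeR and 1.64e-05 by DESeq2, and -1.89 (SE 0.49) for HF against LF, with 0.441 by edgeR and 0.0301 by DESeq2. The study prints ALOX12 among its differential genes for both comparisons, so these values are not an independent result. The epoxide hydrolases EPHX1 and EPHX2, which share with LTA4H the hydrolysis of epoxides but not its fold, had log2 fold changes of 0.81 (EPHX1) and 0.19 (EPHX2) for HF and 0.43 (EPHX1) and 0.41 (EPHX2) for LF against CTRL. EPHX1 in HF against CTRL had an adjusted p of 0.137 by edgeR and 0.0174 by DESeq2. PTGIS, prostacyclin synthase, had -0.29 for HF and -0.80 for LF against CTRL, and neither passed the test by either tool.

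**Figure D3:**
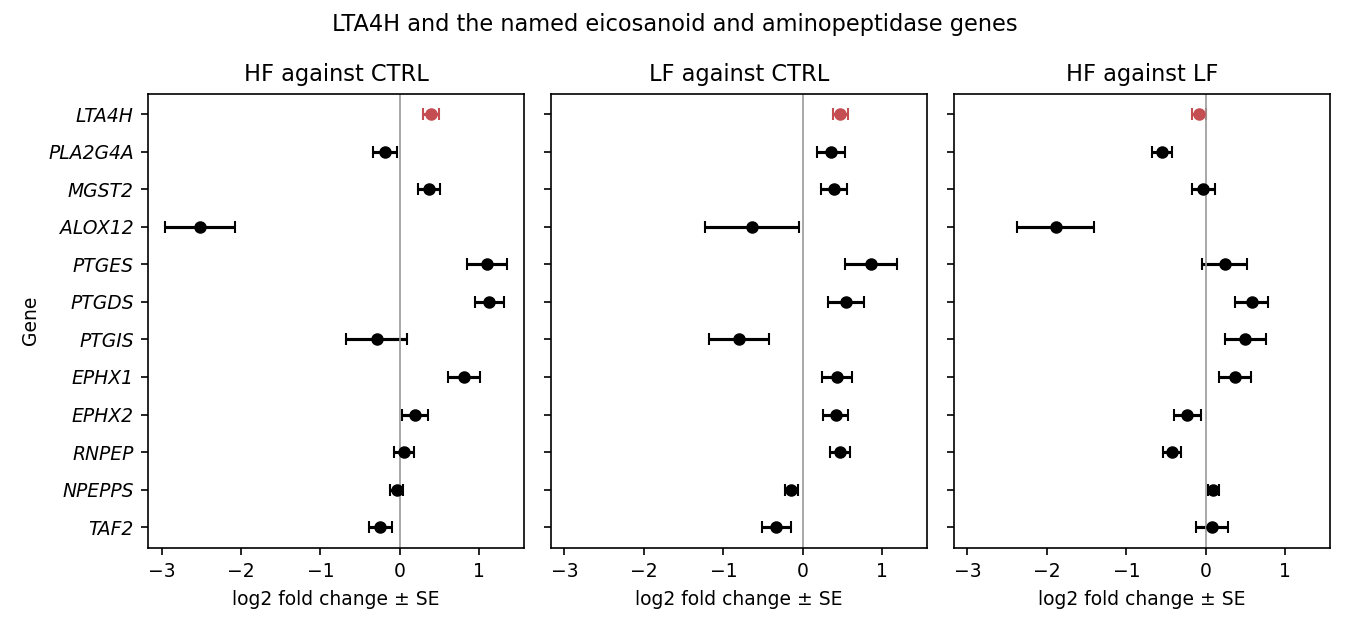
Log2 fold change (horizontal axis) with its SE for LTA4H and the 11 named eicosanoid and aminopeptidase genes, in panels for HF against CTRL, LF against CTRL and HF against LF. LTA4H and MGST2 lie at 0.37 to 0.47 in both comparisons with CTRL, PLA2G4A and RNPEP lie at 0.35 and 0.47 in LF against CTRL and at -0.19 and 0.05 in HF against CTRL, and ALOX12 reaches -2.52 in HF against CTRL.

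The tissue label was checked against marker genes, of which few carried a name. The epithelial genes KRT8, a keratin, and ESRP1, an epithelial splicing factor, summed to 117 to 282 CPM in HF, 185 to 299 CPM in LF and 98.9 to 263 CPM in CTRL heifers (2 of 12 listed genes named). VIM, a stromal gene (1 of 10), was at 2121 to 3055 CPM in HF, 1570 to 3201 CPM in LF and 1356 to 2452 CPM in CTRL heifers. VIM had a log2 fold change of 0.40 (SE 0.12) for HF against CTRL, with an adjusted p of 0.158 by edgeR and 0.0317 by DESeq2, and 0.28 (SE 0.16) for LF against CTRL, with 0.874 by edgeR and 0.873 by DESeq2. RNA of these epithelial genes and of VIM was thus present in every sample. With VIM as the 1 named gene, stroma cannot be told apart from other cells that express it. PADI4, the 1 named gene of 12 neutrophil markers, was at 0 to 0.507 CPM in HF, 0.176 to 1.44 CPM in LF and 0.114 to 0.600 CPM in CTRL heifers, which is near the limit of detection throughout. For LF against CTRL its edgeR log2 fold change was 1.16 (SE 0.42). In HF against CTRL and in HF against LF it did not pass the filter on low counts. PADI4 thus entered the fits only with CTRL and LF heifers, where LF was the higher. The names available also lean toward the LF against CTRL difference. The value is therefore a description, and no test is read from it. The macrophage genes C1QA, C1QB and C1QC (3 of 12) summed to 105 to 258 CPM in HF, 102 to 228 CPM in LF and 92.2 to 196 CPM in CTRL heifers. The part of these marker differences in the LTA4H values was not tested beyond the fits and correlations given for the marker lists.

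The biopsies differed widely in smooth muscle RNA. The 4 named smooth muscle genes of 10, ACTA2, MYLK, SMTN and SYNPO2, summed to 576 to 5979 CPM in HF, with a median of 1053, and to 408 to 4402 CPM in LF, with a median of 1846. In CTRL heifers they summed to 763 to 8385 CPM, with a median of 4890, so the CTRL median was the highest while the ranges overlapped. With the mean level of these genes as a term, the log2 fold change of LTA4H was 0.36 for HF and 0.43 for LF against CTRL, beside 0.39 and 0.47 without it. The part of smooth muscle in the levels of LTA4H was not tested beyond these fits. The names available lean toward genes that differ between LF and CTRL. These 4 genes are therefore not an unbiased measure of muscle, and the fits that use them have the same limit.

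Within treatments, LTA4H was compared with 7 marker lists over the 28 heifers, as residuals about treatment means. The highest correlation was with the epithelial genes, with Pearson r = 0.374 (permutation p = 0.0813, adjusted p = 0.284 over the 7 lists) and Spearman rho = 0.363 (permutation p = 0.0784, adjusted p = 0.549). Without the heifers farthest from the median of the marker, CTRL heifer 6 and HF heifer 2, r was 0.276. By treatment, r was 0.694 in HF and 0.523 in LF, against -0.0654 in CTRL heifers, which is a description of 10, 10 and 8 animals. For the smooth muscle genes r was -0.164 (permutation p = 0.422, adjusted p = 0.604) and rho was -0.150 (permutation p = 0.461), and r was -0.267 without CTRL heifers 7 and 6. No list passed the test, and the neutrophil, lymphocyte, stroma and cilia lists held 1 named gene each.

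**Figure D4:**
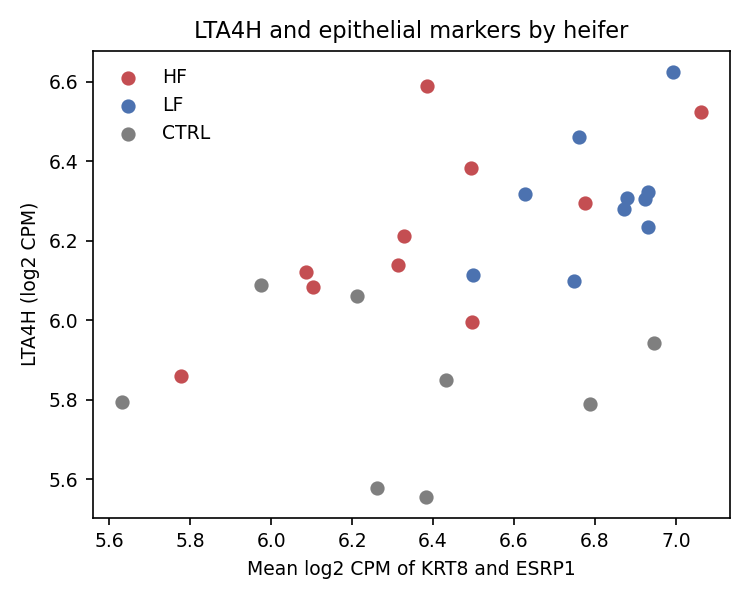
LTA4H in log2 CPM (vertical axis) against the mean log2 CPM of the epithelial genes KRT8 and ESRP1 (horizontal axis), 1 point per heifer, coloured by treatment. LF points lie to the right, with a marker mean of 6.82 ± 0.16, beside 6.38 ± 0.36 in HF and 6.33 ± 0.42 in CTRL (SD over heifers), and in LTA4H the lowest HF points fall within the CTRL range. The gene names available lean toward the LF against CTRL difference, so the higher LF marker mean is not an unbiased measure of epithelium.

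The epithelial genes were at a mean log2 CPM of 6.38 ± 0.36 in HF and 6.82 ± 0.16 in LF (SD, n = 10 each), against 6.33 ± 0.42 in CTRL (SD, n = 8). With this mean as a term, the log2 fold change of LTA4H was 0.37 (SE 0.10) for HF against CTRL and 0.45 (SE 0.13) for LF against CTRL. For HF against LF the sign turned with that term, to a log2 fold change of 0.10 (SE 0.10, edgeR adjusted p = 0.991), beside -0.09 without it. The part of the epithelial share in the levels of LTA4H was not tested beyond these fits. KRT8 and ESRP1 are 2 of 12 listed epithelial genes, and the names available lean toward genes that differ between LF and CTRL. Their higher mean in LF is therefore not an unbiased measure of epithelial share, and the fits that use it have the same limit.

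Of the 1512 named genes past the filter, those with a pattern closest to LTA4H over the 28 heifers were GCNT3 (r = 0.771 in log2 CPM), MISP (0.731), KLK10 (0.728), PDZK1IP1 (0.727) and CYP2U1 (0.712). GCNT3, an enzyme of mucin-type glycan branching, also had the highest r of any of the 15163 genes past the filter, LTA4H aside. Its mean was 4.71 CPM in HF and 6.02 CPM in LF, against 2.74 CPM in CTRL. CYP2U1, a cytochrome P450 that hydroxylates arachidonic acid in human, averaged 22.9 CPM in HF and 24.1 CPM in LF, against 19.1 CPM in CTRL. The most opposed patterns were those of ZDHHC14 (-0.701), RAB7A (-0.663), BLZF1 (-0.658), RNF10 (-0.635) and SSTR1 (-0.632). ZDHHC14, a protein palmitoyltransferase, averaged 43.4 CPM in HF and 36.9 CPM in LF, against 52.5 CPM in CTRL. These values are descriptive, since all points share their library, its depth and its treatment. They carry no p, and the treatment difference that chose LTA4H is part of them.

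In RefSeq's assembly ARS-UCD2.0, which is not the build of the counts, LTA4H lies on chromosome 5 between HAL and AMDHD1 on one side and TRNAD-GUC and ELK3 on the other. None of these 4 genes overlaps it in that annotation, and none could be paired with an ID of the count files, so their levels were not analysed here.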

How the data were processed

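RNA-seq was done on 1 uterine biopsy from each of 28 heifers. The authors trimmed the reads with BBDuk, aligned them to ARS-UCD1.2 with STAR and deposited whole-number counts of uniquely mapped reads per Ensembl gene, without normalization. STAR 2.6.1b and Subread 1.6.3 are the versions listed by the submitters. For the strand setting of the counting, no source used here gives a value. Genes that do not code for protein were kept.

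Treatment came from the sample labels, and bull, breed and study replicate from the animal list of the study. Pairwise fits held the samples of the treatments compared and used edgeR 4.0.16 in R 4.3.3 (TMM, minimum count 10, quasi-likelihood test, 2-sided, Benjamini-Hochberg adjustment over all genes tested, threshold 0.05), and DESeq2 1.42.0 was run as an alternative. The study's own tool was DESeq2. Levels are TMM-normalised CPM over all 28 heifers, and correlations used log2 CPM with a prior count of 2 and 100000 permutations within treatments. The fits were tested on simulated data. No pair of libraries of a treatment agreed within sampling noise (118 pairs). The p-values measure the spread between heifers. Counting intervals cover counting error only.

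LTA4H and the gene lists were chosen with earlier results of these data known. Genes named are LTA4H, the members of 4 lists (leukotriene, other eicosanoid, Pro-Gly-Pro, M1 aminopeptidase) that could be named, the 2 genes on each side, and the 5 highest and 5 lowest correlations over all heifers and over residuals about treatment means. Symbols for 1522 IDs came from the study's gene tables. Marker lists for neutrophils, macrophages, lymphocytes, epithelium, stroma, smooth muscle, endothelium, cilia and erythrocytes were used, and the endothelium and erythrocyte lists had 0 named genes. Alternatives covered normalization, filters, tool, breed, bulls summed, a replicate block and leaving out each heifer.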

Additional observations from a re-analysis of the deposited data

Results flagged for a closer look

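LTA4H had no heifer that stood apart within its treatment. Among the 12 genes of the pathway plot, 7 of 36 gene and treatment groups held a heifer whose gap to the next, relative to the range, passed Dixon's 95% limit, where chance gives about 1 in 20. PLA2G4A was at 64.5 CPM in LF heifer 8, with the next LF heifer at 44.3. MGST2 was at 102 CPM in HF heifer 7 (next 76.7) and at 81.5 CPM in CTRL heifer 7 (next 55.4). PTGDS was at 556 CPM in HF heifer 9 (next 385) and at 427 CPM in LF heifer 7 (next 269). ALOX12 was at 15.9 CPM in HF heifer 2 (next 8.28), and TAF2 was at 115 CPM in CTRL heifer 1 (next 89.6). Causes of these single values were not tested.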

How the results depend on the processing

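The sign of LTA4H against CTRL held in every alternative run, all of which used heifers by which the gene was chosen. The log2 fold change was 0.30 to 0.49 for HF over 16 alternatives and 0.36 to 0.60 for LF over 16, the lowest and highest coming from study replicates 2 and 1 alone, fits chosen after seeing the data. Leaving out 1 heifer gave 0.35 to 0.43 for HF, 0.43 to 0.51 for LF and -0.13 to -0.05 for HF against LF. With epithelial markers as a term, chosen after seeing the data, HF against LF turned to 0.10, and over its 13 alternatives the adjusted p was 0.807 to 0.997. The heifer numbers did not pair the samples (5 of 8, 4 of 8 and 5 of 10 pairs correlated above 0.1), and a replicate block gave 0.42 for HF and 0.50 for LF against CTRL and -0.10 for HF against LF, with no call changed. DESeq2 called 4 eicosanoid genes in HF against CTRL, beside 2.11% of all genes, where edgeR called 0 (0 to 3 with a heifer left out, 3 without CTRL heifer 2 and 2 without CTRL heifer 6). In HF against LF, DESeq2 called 1 leukotriene and 1 eicosanoid gene, beside 0.162% of all genes, where edgeR called 0. The correlation with macrophage genes turned to -0.0130 without CTRL heifer 6 and HF heifer 4. Causes of these changes were not tested. The lists are limited by the few pathway and marker genes that could be named.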

Other observations

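About treatment means, the named genes whose residuals followed LTA4H most closely were GCNT3 (r = 0.619 over 28 heifers), TSPAN15 (0.591), CYP2U1 (0.588), MSTN (0.563) and CDH16 (0.558). GCNT3 and CYP2U1 were thus among the closest both with and without the treatment difference. At the other end stood SSTR1 (-0.566), IL1A (-0.545), USB1 (-0.534), ZDHHC14 (-0.512) and DLK2 (-0.480). IL1A, which encodes the inflammatory cytokine interleukin 1 alpha, averaged 4.84 CPM in HF and 0.834 CPM in LF, against 1.37 CPM in CTRL. Over any gene past the filter the residual r was 0.627 at most and -0.640 at least, and these are descriptions of heifers that share library and depth.

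The correlations of LTA4H with the other marker lists within treatments were 0.354 for lymphocytes (permutation p = 0.0765, adjusted p = 0.284, Spearman rho = 0.263 with permutation p = 0.184, and r = 0.303 without CTRL heifer 1 and LF heifer 7), 0.239 for cilia, 0.163 for macrophages, 0.0959 for neutrophils and -0.0141 for stroma, and none passed the test. Lymphocytes, cilia, neutrophils and stroma stand here for 1 named gene each. The neutrophil gene, PADI4, was near the limit of detection, so its value cannot show whether LTA4H follows neutrophils. TPPP3, the named cilia gene, had a median of 386 CPM in HF and 347 CPM in LF, against 187 CPM in CTRL. LCK, the named lymphocyte gene, had a median of 11.1 CPM in HF and 11.8 CPM in LF, against 9.52 CPM in CTRL.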
